A study of Drosophila melanogaster with 2 samples.

Results

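The genes fkh, grn, srp, GATAe, pnr, ush and byn of Drosophila melanogaster were examined in chromatin immunoprecipitation with sequencing (ChIP-seq) peaks of l(3)neo38, a zinc finger gene. They are 7 of the 13945 protein-coding genes that the Ensembl dm6 annotation places on the 6 chromosome arms. The genes were taken by name, and a summit, the position within a peak that the authors deposited as its highest point, was assigned to a gene when it lay in the gene body. A summit outside every body went to the nearest protein-coding gene if that gene was at most 10 kb away, and all summits inside ush counted for ush. By this rule 24 of the 3953 thresholded summits belonged to 6 of the 7 genes, and byn had 0.

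The embryos came from a transgenic line, labelled l(3)neo38-GFP, that stably expressed l(3)neo38 with GFP fused to its C-terminus, and the chromatin was pulled down with an antibody against GFP. Whole embryos aged 0 to 24 h were used, with male and female embryos pooled, and chromatin was sonicated to a size range of 200 to 800 bp. There were 2 biological replicates, which form 1 group. No untagged or other control embryos were among the samples analysed here, so no conditions were compared. The fusion protein came from a transgene, and whole embryos of all stages mix every tissue, so a summit near a gut gene does not say in which cells or at what stage it arose.

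GATA factors are zinc finger proteins that bind DNA around the letters GATA and specify endoderm, blood, heart and ectoderm in the fly embryo. Friend-of-GATA proteins such as u-shaped carry many zinc fingers, bind GATA factors directly and change what they do. Forkhead and T-box proteins are further families of DNA-binding regulators, and the founding forkhead gene, fork head, and the T-box gene brachyenteron are both required to build parts of the gut.

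The strongest summit of each gene, with 50 bases to either side, is shown first, since the rest of the account turns on where these summits lie and what letters they hold. Fork head and grain have a second sequence because they were level for the second highest number of summits, and u-shaped has one because it had the most. The strongest summit of serpent lies in a UTR, so its second strongest is shown. All are plus-strand sequence of the RefSeq release 6 assembly. Capitals mark C-rich stretches on either strand (6 or more C, or 6 or more G, among 8 bases), GAGAG elements on either strand, and GATA sites, of which these 9 windows hold none.
fkh, strongest, 3R:28585452-28585552: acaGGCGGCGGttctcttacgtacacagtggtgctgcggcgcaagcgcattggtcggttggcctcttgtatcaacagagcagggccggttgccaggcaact
fkh, second, 3R:28572446-28572546: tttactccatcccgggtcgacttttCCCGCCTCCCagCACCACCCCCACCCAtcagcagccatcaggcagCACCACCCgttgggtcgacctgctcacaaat
grn, strongest, 3R:8181604-8181704: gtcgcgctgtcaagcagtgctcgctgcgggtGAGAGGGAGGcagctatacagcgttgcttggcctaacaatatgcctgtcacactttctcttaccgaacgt
grn, second, 3R:8187941-8188041: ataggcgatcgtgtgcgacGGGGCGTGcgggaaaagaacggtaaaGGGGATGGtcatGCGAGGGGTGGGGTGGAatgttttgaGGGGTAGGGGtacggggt
srp, second, 3R:16005254-16005354: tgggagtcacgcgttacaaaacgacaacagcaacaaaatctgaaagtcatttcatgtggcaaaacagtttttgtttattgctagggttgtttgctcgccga
GATAe, strongest, 3R:16007258-16007358: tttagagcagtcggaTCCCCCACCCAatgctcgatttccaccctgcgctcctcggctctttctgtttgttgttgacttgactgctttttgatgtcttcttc
pnr, strongest, 3R:16038151-16038251: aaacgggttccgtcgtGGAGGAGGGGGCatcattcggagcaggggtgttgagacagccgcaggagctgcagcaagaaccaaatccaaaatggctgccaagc
ush, strongest, 2L:481026-481126: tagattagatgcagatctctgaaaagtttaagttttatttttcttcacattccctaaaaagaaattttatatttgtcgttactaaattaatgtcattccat
ush, second, 2L:480034-480134: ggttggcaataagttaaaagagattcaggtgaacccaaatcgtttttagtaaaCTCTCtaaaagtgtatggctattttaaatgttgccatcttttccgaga

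A summit was assigned to 6 of the 7 genes, and across all protein-coding genes 13.4% (1865 genes) had at least 1. All 6 had at least 2 summits, a number that 5.80% of all protein-coding genes reached. A promoter summit, within 500 bp of one of the gene's own transcript starts, was present at 4 of the 7 genes, namely fkh, grn, GATAe and pnr, against 8.24% of all protein-coding genes. The genes were picked as regulators with results of these peaks already known, so these counts are a description and were not tested.

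The signal value, the peak strength deposited by the authors, ranked entries within each list. The thresholded list is the authors' list after their reproducibility step, and its 3953 summits were also the 3953 strongest of the 30000 entries of the pooled list, so each summit has 1 rank in both. The list of each replicate also held 30000 entries and has ranks of its own, where 1 is the strongest. The 24 summits of the 6 genes had signal values of 143.5 at the lowest, 272.3 at the median and 1738 at the highest, against 140.7, 209.6 and 3625 over all thresholded summits. They spanned pooled ranks 7 to 3824, with 8 of them at rank 1000 or better and 15 among the 1976 strongest peaks.

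Fork head (fkh, FBgn0000659), the forkhead protein of foregut, hindgut and salivary glands, lies on the minus strand of 3R at 28580976-28585264 and is 4.289 kb long, with 2 annotated starts. Its strongest summit, at 28585502, lay 238 bp upstream of the first start. It had a signal value of 648.2 and pooled rank 146, and ranked 155th in replicate 1 and 159th in replicate 2. The replicates thus placed it almost level. The other 3 summits sat together downstream of the gene, 7500 to 8480 bp past its end, and the body itself held none. The strongest of the 3, at 28572496, had a signal value of 357.9 (pooled rank 677, with ranks 606 in replicate 1 and 862 in replicate 2). The remaining pair, at 28573272 and 28573476, were 204 bp apart in overlapping intervals, so they may not be separate places. Their signal values were 184.8 and 147.5. The first of the pair ranked 2381st in replicate 1 and had no entry within 100 bp in replicate 2, the only one of the 24 without a match in both full lists. The second ranked 7127th in replicate 1 and 2655th in replicate 2. These downstream summits belonged to fkh by closeness to its body alone: with summits counted only within 5 kb, or by the nearest transcript start within 10 kb, fkh kept 1 summit.

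Serpent, GATAe and pannier stand side by side on the plus strand of 3R, from 15986152 to 16041796, with 0 protein-coding genes between them and gaps of 5019 and 6945 bp. This stretch of 55.65 kb held 7 summits, 1.258 per 10 kb, against 0.2953 per 10 kb over all arms. Of the 7, 4 lay inside one of the genes and 3 in the gaps, at signal values of 143.5 to 400.0.

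Serpent (srp, FBgn0003507), the GATA factor that sets up endoderm, fat body and blood cells, spans 15986152-16004085 (17.93 kb, 4 starts) and had 3 summits. The strongest, at 15993300, lay in the 5' UTR, 840 bp from the nearest start. Its signal value was 347.8, at pooled rank 725, and it ranked 736th in replicate 1 and 1003rd in replicate 2. The next, at 16005304, lay 1219 bp past the end of the body with a signal value of 298.9 (pooled rank 1014, with ranks 980 in replicate 1 and 1056 in replicate 2). Its replicate 2 rank is that of an entry whose summit lay 100 bp away, the largest distance that counted as a match. The nearest coding start to 16005304 was that of GATAe, 3801 bp away, so by nearest start this summit went to GATAe. Among all annotated genes a closer start lay 891 bp away. The weakest, at 15989383, was intronic, with a signal value of 154.1 and ranks of 4668 in replicate 1 and 2598 in replicate 2. None of the 3 lay within 500 bp of a serpent start.

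GATAe (FBgn0038391), which acts after serpent in midgut differentiation, spans 16009105-16019133 (10.03 kb, 2 starts). It had the weakest set of the 6 genes. A summit at 16007308, 1797 bp upstream, had a signal value of 183.5 (pooled rank 2500, with ranks 2577 in replicate 1 and 3143 in replicate 2). The start of a long non-coding RNA, lncRNA:CR42839, was closer to it, at 765 bp. A summit at 16009225, in the 5' UTR 120 bp from the start, had a signal value of 143.5 and pooled rank 3824, and ranked 3626th in replicate 1 and 5973rd in replicate 2. Neither was among the 1976 strongest peaks.

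Pannier (pnr, FBgn0003117), the GATA factor of the dorsal ectoderm, heart and dorsal thorax, spans 16026079-16041796 (15.72 kb, 3 starts) and had 2 summits 12171 bp apart. The stronger, at 16038201, was intronic, 3615 bp from the nearest pannier start, with a signal value of 400.0 and pooled rank 528. It ranked 515th in replicate 1 and 708th in replicate 2. The other, at 16026030, lay 49 bp upstream of the first start, with a signal value of 296.2 (pooled rank 1030, with ranks 1304 in replicate 1 and 876 in replicate 2). Each replicate thus ranked a different one of the pair better than the other replicate did.

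Grain (grn, FBgn0001138), a GATA factor needed for the posterior spiracles and for motor axon guidance, lies away from this cluster on the minus strand of 3R at 8147368-8181444. It is 34.08 kb long with 1 start, and all 4 of its summits were upstream of that start. A pair lay close to the start, at 210 and 420 bp upstream. The nearer, at 8181654, had a signal value of 440.9 (pooled rank 401, with ranks 318 in replicate 1 and 625 in replicate 2). The farther, at 8181864, had 256.2 (pooled rank 1371, with ranks 1890 in replicate 1 and 2936 in replicate 2), and their intervals did not overlap. The replicate 2 ranks of this pair are those of entries whose summits lay 96 bp (nearer) and 85 bp (farther) away. The summit at 8187991, 6547 bp upstream, was nearly as strong as the first, at 424.7 (pooled rank 443, with ranks 366 in replicate 1 and 689 in replicate 2). The last, at 8191052, was 9608 bp upstream with a signal value of 275.0, and ranked 994th in replicate 1 and 1760th in replicate 2. Among all annotated genes a closer start lay 6659 bp from it. All 4 were among the 1976 strongest peaks, and all 4 ranked better in replicate 1. The long body held no thresholded summit, while the pooled list had 19 weaker entries in it, the strongest at 121.9.

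U-shaped (ush, FBgn0003963), the friend-of-GATA protein that binds pannier and is needed for germ band retraction and blood cell fate, lies on the plus strand of 2L at 476220-540560. It is 64.34 kb long with 4 starts, and had 9 summits, all in introns and none within 500 bp of a ush start. As many or more were assigned to 0.287% of all protein-coding genes (40 genes). For its length, the body held 1.399 summits per 10 kb, against 1.115 in serpent, 0.9971 in GATAe, 0.6362 in pannier and 0 in fork head and grain. Without 3 summits whose nearest coding start is that of another gene, described next, ush had 0.9325 per 10 kb, below serpent and GATAe.

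The strongest ush summit, at 481076, had a signal value of 1738, the 7th of all 3953, and ranked 6th in both replicates. Its signal value was 1096 in the list of replicate 1 and 650.5 in that of replicate 2, which are separate lists and were compared by rank only. It lay 4856 bp into ush at the end of a row of 3, with 480084 and 479030 before it at spacings of 992 and 1054 bp. The summit at 480084 had a signal value of 462.2 (pooled rank 365, with ranks 536 in replicate 1 and 254 in replicate 2). The summit at 479030 had 269.7 (pooled rank 1234, with ranks 1627 in replicate 1 and 1161 in replicate 2).

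These 3 summits cannot be given to ush alone. Cabut (cbt), a zinc finger gene on the opposite strand, is nested in ush, and its start is the nearest one to all 3, at 1388, 396 and 658 bp in the order just given. The summit at 479030 lay inside cbt as well. By nearest transcript start within 10 kb, or inside the body, ush kept 6 of its 9 summits.

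The other 6 ush summits lay farther along the gene. The summit at 485853 had a signal value of 259.7, and ranked 974th in replicate 1 and 2687th in replicate 2. After a gap of 24824 bp without a thresholded summit came 510677, at 277.8 (ranks 1580 in replicate 1 and 890 in replicate 2), and 510881, at 160.0, which were 204 bp apart in overlapping intervals. The last 3, at 516518, 519648 and 526734, had signal values of 151.6, 206.0 and 162.1. Of these, 526734 differed most between replicates, at rank 2181 in replicate 1 and 5561 in replicate 2. Upstream of ush the nearest thresholded summit, at 472430 with a signal value of 628.8, lay 230 bp from the start of CG4297 and was assigned to that gene.

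Brachyenteron (byn, FBgn0011723), the T-box protein of the hindgut and posterior gut, spans 11927693-11935919 on the plus strand of 3L (8.227 kb, 1 start) and had 0 thresholded summits. The pooled list held 2 weak entries in its introns, with signal values of 48.6 (rank 17623) and 39.4 (rank 22879). The first had a match in replicate 1 only, at rank 16795, and the second in replicate 2 only, at rank 14563. A further entry 513 bp upstream of the start had 48.2, at ranks 24590 in replicate 1 and 16807 in replicate 2. The nearest thresholded summit, at 11920655 with a signal value of 155.5, lay 7038 bp upstream. It went to CG44837, whose body holds that summit and the whole of byn on the opposite strand. At byn these lists thus held only entries below the threshold. The authors named the pooled list as peaks and background, so these weak entries show neither binding at byn nor its absence.

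**Figure D1:**
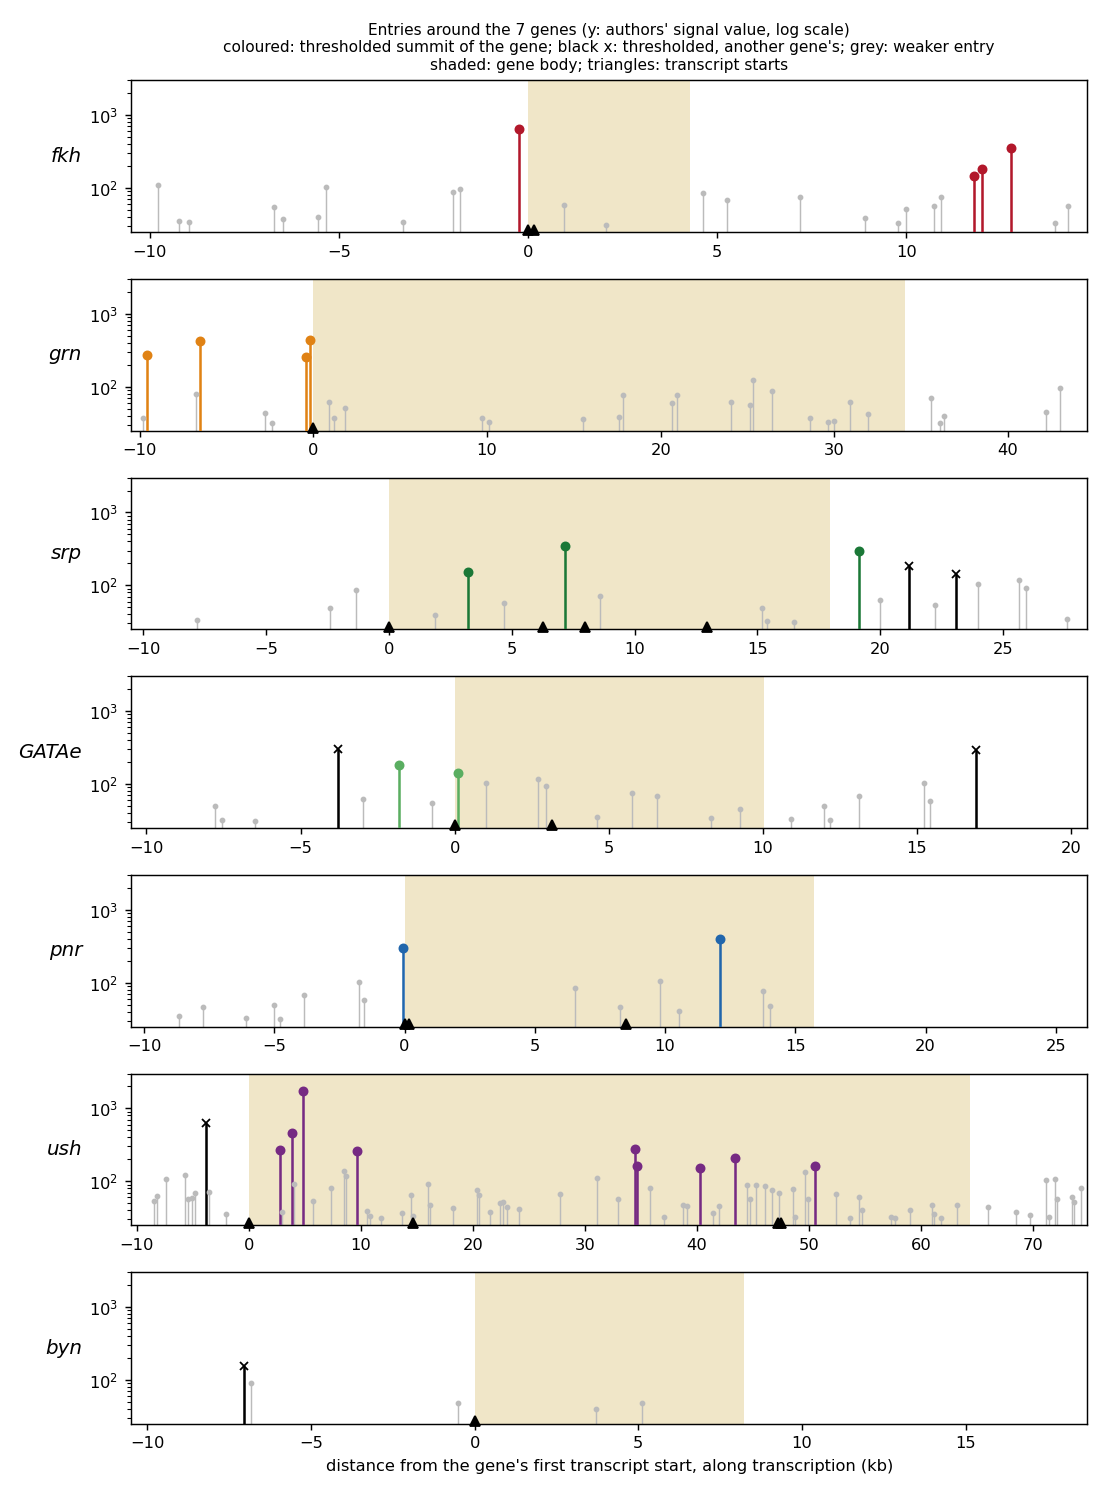
Entries of the pooled list around the 7 genes, 1 panel per gene, with the distance from the first transcript start along the direction of transcription (kb) on the x axis and the authors' signal value on a log y axis. Coloured stems are thresholded summits assigned to the gene, black crosses are thresholded summits assigned to another gene, grey stems are weaker entries, shading is the gene body and triangles are transcript starts. The grn and fkh bodies hold no coloured stem, ush holds 9, and byn has grey stems only inside its body.

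Of the 24 summits, 5 (20.8%) were promoter summits of their own gene, 2 of them at grn. Within 500 bp of any coding start were 6 of the 24 (25%), with ush at 480084 added through the cbt start, against 1141 of 3953 (28.9%). By position, 11 lay in introns, 2 in a 5' UTR, 7 upstream of the gene, 4 downstream and 0 in coding exons. Of the 11 intronic summits 9 were in ush, and the other two were in srp and pnr. In the order of all 1865 genes with a summit, ush was 7th by the signal value of its strongest summit, fkh 126th, grn 326th, pnr 421st, srp 543rd and GATAe 1392nd. The values of grn, pnr and srp were close, from 347.8 to 440.9, and the spread of a signal value between replicates could not be set on 1 scale. In ranks, replicate 1 kept the order ush, fkh, grn, pnr, srp, GATAe, and so did replicate 2.

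The weakest assigned summit was that of GATAe at 143.5 (rank 3824), and the strongest entry at one of the genes that missed the threshold was in ush at 484679, with 137.7 (rank 4088). The assigned summit nearest to the distance limit was that of grn at 9608 bp, and the first entry past the limit on that side, 11086 bp upstream of grn, had a signal value of 134.1 (rank 4260). Below the threshold, the pooled list gave 52 further entries to ush, 27 to grn, 17 to fkh, 13 to GATAe, 8 each to srp and pnr and 2 to byn. That list holds background as well as peaks. These counts were not set beside a share over all coding genes, so they only describe the list.

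Matched within 100 bp, 19 of the 24 summits (79.2%, exact Clopper-Pearson 95% interval 57.9 to 92.9%) were among the 3953 strongest entries of both replicates, against 2442 of 3953 thresholded summits (61.8%, 60.2 to 63.3%). The intervals overlapped. They cover counting error only, and neighbouring summits of 1 gene are not independent. In replicate 1 alone 22 of the 24 were among the strongest, against 3232 of all 3953. In replicate 2 alone 21 were, against 3046 of 3953. None was missing from both, against 117 of 3953. With only 24 summits, 0 cannot be told apart from so small a share. The 23 summits matched in both full lists had a median ratio of 1.49 between their ranks in the replicates, against 1.68 over 3595 matched summits in all. Of the 23, 14 (60.9%) ranked better in replicate 1, 8 in replicate 2 and 1 equally, against 1744 (48.5%) of the 3595 that ranked better in replicate 1. Since both replicates went into the thresholded list, a match is partly built in. The 24 summits were also stronger than the whole list, at a median signal value of 272.3 against 209.6. Matching and rank ratios were not compared between summits of like strength.

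**Figure D2:**
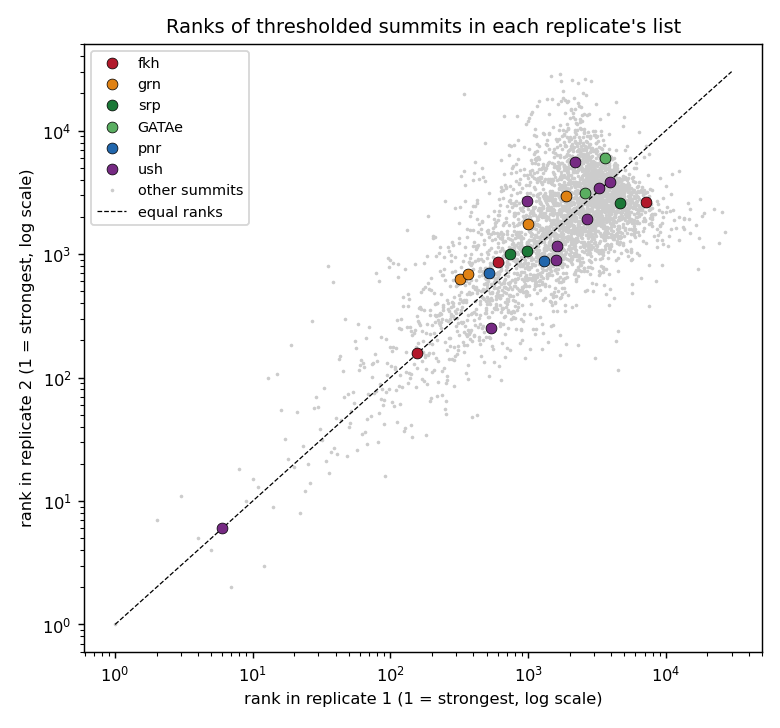
Rank of each thresholded summit in replicate 1 (x axis) and replicate 2 (y axis), both on log scales with 1 the strongest; coloured points are the 23 summits of the 6 genes matched in both lists, grey points are the other summits and the dashed line marks equal ranks. The strongest ush summit sits at rank 6 in both, and fkh's strongest close to the line at 155 in replicate 1 and 159 in replicate 2.

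Over the 24 windows of 50 bp to either side of the summit, the GC content was 24.75% at the lowest, 53.5% at the median and 61.4% at the highest, against 13.9%, 50.5% and 75.2% over all thresholded summits. The lowest was the strongest ush summit, which holds none of the elements searched. Only 105 of 3953 windows (2.66%) had a GC content at or below its 24.75%. Among the 20 strongest peaks of the whole list it was the only one (5%), and 16 of the 20 held a C-rich stretch. Among the 100 strongest, 5 (5%) had a GC content at or below 24.75%, this summit included. The second ush window was also AT-rich, at 34.7% GC. The deposited intervals around both are richer, at 47.1% over 594 bp and 49.7% over 473 bp, and their nearest C-rich stretches lay 96 bp and 216 bp from the summits.

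C-rich stretches were found in 15 of the 24 windows (62.5%), against 63.8% of all summit windows. In windows of the same width centred 350 bp to either side they were in 11 of 48 (22.9%) around the genes' summits and 22.8% around all. The shares at and beside these genes' summits thus lay within 2 percentage points of those over all summits at this window width. With 25 bp to either side the shares at the summits lay farther apart, at 25% of the genes' windows against 39.7% of all. The richest windows were those of grn at 8187991, with 14 overlapping matches, fkh at 28572496, with 12, and srp at 15993300, with 11. The 8-mer CCCACCCC, which also counts as C-rich, stood in 2 of the 24 windows (8.33%), those of grn at 8187991 and srp at 15993300, against 6.37% of all summit windows. None of the 48 flanking windows of these genes held it, against 0.506% of all flanking windows.

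GAGAG, the letters of the GAGA element, was in 10 of the 24 windows (41.7%), against 27.1% of all summit windows, and in 7 of the 48 flanking windows (14.6%), against 14.8% of all flanking windows. The window of ush at 510677 held 10 of the 21 matches, the largest count among the 24. At the pannier promoter the interval around 16026030 held 15 GAGAG matches and no C-rich stretch. The interval of ush at 516518 held more, 17 GAGAG matches, together with 13 C-rich matches. The other intervals without a C-rich stretch, of fkh at 28573272 and ush at 485853, held no GAGAG. Counts in intervals were not set beside those of all summits. The difference of 41.7% from 27.1% rests on 24 windows, some of them neighbours in 1 gene, and was not tested. Over the whole list GAGAG was more frequent at strong peaks. It was in 10 of the 20 strongest (50%) and in 41 of the 100 strongest (41%). The 24 summits were stronger than the whole list, and GAGAG shares were not compared between summits of like strength.

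The letters that GATA and forkhead proteins read were found in few summit windows, both for these genes and over all summits. A GATA site, here AGATAA or AGATAG or TGATAA or TGATAG on either strand, was in 2 of the 24 windows (8.33%), both in ush, at 510677 and 519648, against 13.5% of all summit windows. In the flanking windows it was in 13 of 48 (27.1%), against 17.3% of all flanking windows. A forkhead site, TGTTTAC or TATTTAC, was in 0 of the 24 windows, against 5.14% of all summit windows, and in 3 of the 48 flanking windows (6.25%), against 4.68% of all. These counts rest on 24 windows and were not tested. In the wider deposited intervals GATA sites also lay outside ush. There were 3 at grn 8187991, 2 at srp 16005304 and 1 at GATAe 16007308, and a forkhead site lay at srp 15989383. The intervals were not compared with those of all summits. A match is a description of the letters, and its lack says only that they are not in the window.

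**Figure D3:**
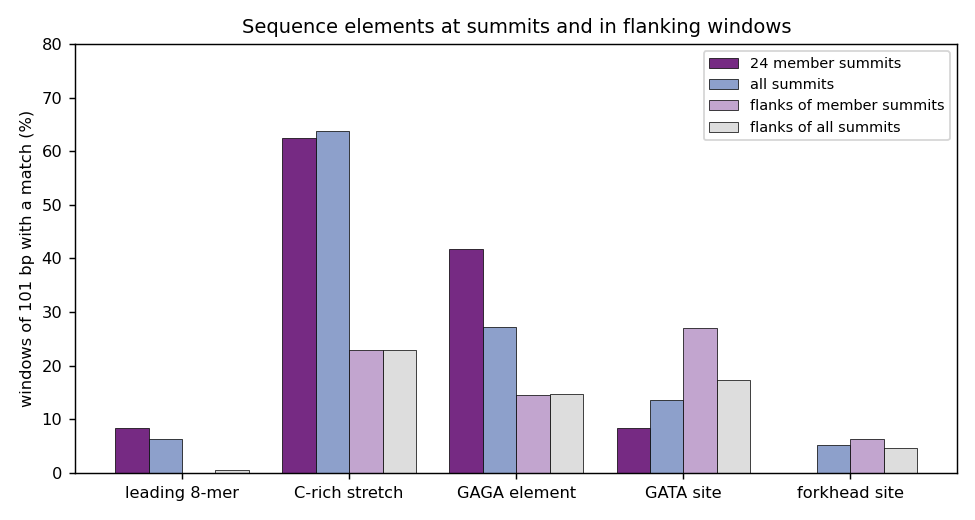
Share of windows of 50 bp to either side of a position that hold each element (%, y axis): the 24 summits of the 6 genes, all thresholded summits, the windows beside the genes' summits and the windows beside all summits, for the 8-mer named in the text, C-rich stretches, GAGA elements, GATA sites and forkhead sites. C-rich bars are level at 62.5% and 63.8%. GATA sites are at 8.33% in the genes' summits and 27.1% beside them, against 13.5% and 17.3% for all summits. Forkhead sites have no bar at the genes' summits, against 5.14% at all summits.

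The wider families were described from 8 lists that hold 60 further genes. Of these, 38 (63.3%) had an assigned summit and 32 a promoter summit, beside 6 of 7 and 4 of 7 of the genes above. Over all protein-coding genes the shares were 13.4% and 8.24%. The counts of single lists below stand beside the same 13.4%. The lists were chosen with earlier results known, and none of these counts was tested. The median signal value of the strongest summit was 420.4 over the 6 genes, 424.8 over the 38 and 249.3 over all 1865 genes with a summit.

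Of the 5 GATA factors, GATAd was the only one without a summit, and of the GATA partners ush had summits and Chip (Chi), a cofactor that bridges enhancers and promoters, had none. In the forkhead family 11 of 17 genes had a summit, fkh included. The strongest was at fd96Ca, with a signal value of 1154 (rank 23) at a summit 2078 bp upstream, then slp2, a pair-rule and head regulator, at 660.1 (rank 135), just above fkh at rank 146. In the T-box family 6 of 8 had one, and byn and Doc2 did not. The strongest was at bi (optomotor-blind), a regulator of wing and optic lobe, with 1176 (rank 21), and it ranked 13th in replicate 1 and 100th in replicate 2. It was followed by H15, a heart and leg regulator, at 910.3, and Doc3, of the amnioserosa and heart, at 528.5.

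Among regulators of foregut, midgut and hindgut 13 of 18 genes had a summit, led by Dr, a homeobox gene of muscle and nerve cord, at 631.7, Ptx1, a homeobox gene of the Pitx family, at 535.6, and bowl, a zinc finger gene of foregut and hindgut, at 526.9. Those without were tll, lin, raw, dpp and tsh. In the list of germ band retraction and amnioserosa genes 5 of 7 had a summit, with tup, the fly Islet gene, at 913.5 and InR, the insulin receptor, at 481.6 after ush. Of the targets of pannier and u-shaped and bristle genes 3 of 7 had one, all of them Iroquois genes: mirr at 1797 (rank 5), caup at 474.9 and ara at 374.1. The 4 proneural genes ac, sc, ase and l(1)sc had none. Of the blood and heart genes 5 of 7 had one, led by svp, a nuclear receptor of heart cells, at 914.5, the T-box gene mid at 526.9 and tin, the homeobox gene of the heart and visceral muscle, at 326.4, and lz and Hand had none.

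**Figure D4:**
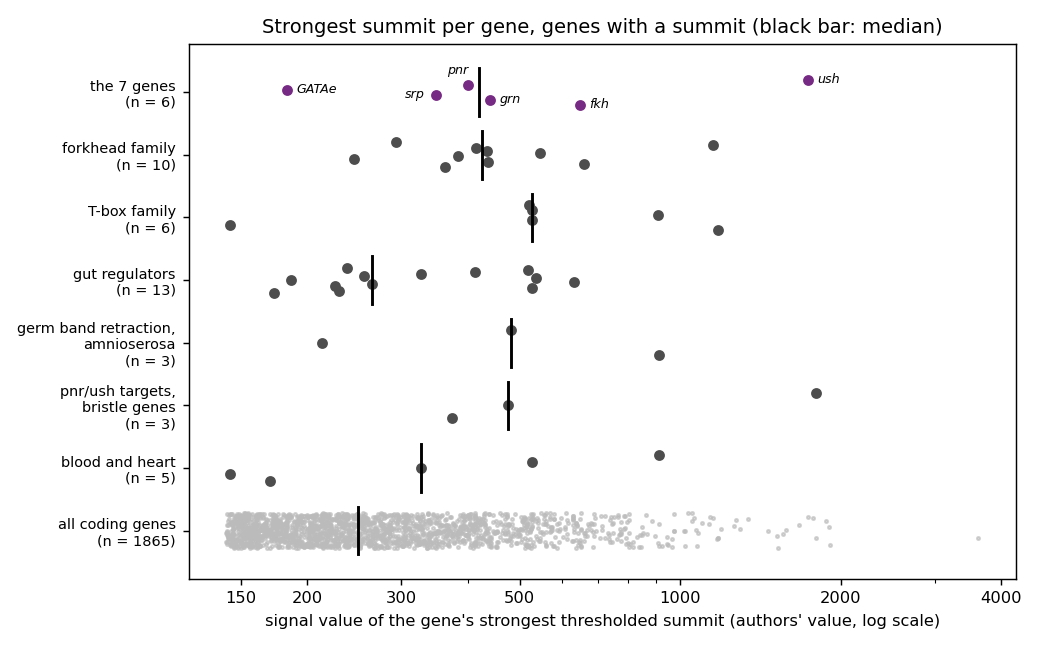
Signal value of the strongest thresholded summit of each gene that has one (x axis, log scale), by list, with the genes of this account in the top row, members of the other lists below and all coding genes with a summit at the bottom; black bars are medians. The 6 genes run from 183.5 (GATAe) to 1738 (ush), around a median of 420.4, against 249.3 over all 1865 genes.

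The gene outside the 7 whose strongest summit had the most similar ranks was found for each by the distance between log2 ranks over the pooled list and both replicate lists. For fkh it was zld, the zinc finger activator of the early zygotic genome, at ranks 153 in replicate 1, 164 in replicate 2 and 149 pooled (distance 0.0566). It was Rx for grn (0.148), CG42699 for srp (0.125), lab for GATAe (0.0567) and Cyp18a1 for pnr (0.120). For ush the nearest was CG1677 (0.679), with ranks 4, 5 and 6 in replicate 1, replicate 2 and the pooled list.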

How the data were processed

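ChIP-seq of l(3)neo38-GFP embryos was taken from 2 biological replicates. The authors deposited a peak list for each replicate, a list from both replicates' alignments together and a thresholded list derived from them, per the descriptions deposited with the files. Each entry has a signal value, the authors' peak strength, and a summit offset, both as deposited. The peak caller, its version, the threshold of the reproducibility step and the normalization of the signal were not given in the sources used here. Signal values therefore rank entries within a list only. The lists hold no read counts, and the replicates' depth is unknown. The lists on build dm3 were not used, and no annotation of that build was used here.

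Summits on dm6 were assigned with the Ensembl 115 annotation, over 6 arms, and sequence came from the RefSeq release 6 assembly. Motifs were searched on both strands in windows of 50 bp to either side of a summit and in windows centred 350 bp away. Overlapping matches were counted, and CCCACCCC matches are also C-rich. Summits of replicates were matched within 100 bp. With 1 group no test was run, and only counts, ranks and exact 95% intervals are given. Named beside the 7 genes are the 3 genes of each list with the strongest summit, list genes without a summit, the gene whose start is nearest to a strongest summit, and the gene of most similar ranks. CG4297 and CG44837 were named after their values were seen. The 7 genes, the gene lists and the motifs were chosen with earlier results of these data known. FoxK stands once in the forkhead list, since another listed name is an older one of it. Alternatives covered the peak list, distance limit, assignment rule, promoter window, match distance and motif window. The procedures were tested on simulated data. Python 3.11.15, numpy 2.4.6, scipy 1.17.1 and matplotlib 3.10.9 were used.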

Additional observations from a re-analysis of the deposited data

How the results depend on the processing

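With the 1976 strongest peaks in place of all thresholded peaks, 15 of the 24 summits were assigned to the 7 genes, and with all pooled entries 151. Under the first, 5 genes had a summit, since GATAe had 0, and under the second all 7 had one. Of the 60 further list genes, 33 had one under the first and 52 under the second. The share of 13.4% of all protein-coding genes holds for the thresholded list only. No such share was set beside the gene counts of these settings, so they are a description. The pooled entries include background. Each replicate's own 3953 strongest entries, used without the other replicate, gave 23 to 24 summits to the 7 genes and left byn at 0. Within 5 kb, within 20 kb, by nearest start and among all annotated genes the numbers were 19, 25, 18 and 21. Fork head had 1 summit within 5 kb and by nearest start, and grn 2 within 5 kb. Among all annotated genes GATAe had 1, srp 2 and grn 3. With all entries of each replicate list, 95.83% of the 24 summits were matched in both, and with matching within 50 and 250 bp 62.5% and 87.5%. With windows of 25 bp to either side CCCACCCC was found at 1 summit (4.17%, against 2.78% of all summits), C-rich stretches at 6 (25%, against 39.7%) and GATA sites at 1 (4.17%, against 7.13%). With 100 bp to either side GATA sites were at 5 summits (20.8%, against 25.8% of all) and forkhead sites at 1 (4.17%, against 9.79%). GAGAG was at 7 summits with 25 bp to either side (29.17%, against 15.15% of all summits). With 100 bp it was at 13 (54.17%, against 44.7%). Among the 15 summits in the stronger part of the list C-rich stretches were at 9, GAGAG at 8 and GATA sites at 1. No share over all summits of that part was set beside these counts, so they only describe the 15. Of the values that answer a comparison, 38 were counted as unmoved and 10 as moved. The limit was wide: the change from 24 to 18 summits by nearest start counted as unmoved. So did that from 79.17% to 62.5% matched within 50 bp. Of the values of single genes or lists 28 moved, among them the strongest signals read from a replicate's own list. No paired analysis was possible because the 2 replicates form 1 group. Depth is unknown, so the limit that depth sets on a missing summit, such as that of byn, cannot be given.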
